A study of Homo sapiens with 3 samples.

Results

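Peaks of RBPJ and L3MBTL3 were examined around 7 transcription factor genes, KLF2, KLF4, KLF6, KLF10, NR4A1, NR4A2 and NR4A3, in MDA-MB-231, a hormone receptor-negative, mesenchymal-like human breast cancer cell line. The 7 are among 19748 protein-coding genes of the annotation. They were chosen by the peaks seen near some of them in these same lists, so the peaks and folds below are a description of that choice and support nothing about it. Chromatin immunoprecipitation with sequencing (ChIP-seq) was done with an antibody against RBPJ and with one against L3MBTL3, 1 library each, in cells for which the labels name no treatment or genetic change. Input DNA of the same cells was sequenced too. It was not analysed here, and whether it served as the background of the deposited folds is not stated. A single library per antibody leaves every value without a replicate error, so no test between conditions was made. The labels give 30000000 to 40000000 aligned reads per library.

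All summits within 100 kb of a transcription start site (TSS) of the 7 genes were taken. A distal RBPJ peak, whose nearest protein-coding TSS is that of NR4A2, was added. Its fold was among the highest of the RBPJ peaks that overlap no L3MBTL3 peak. This gave 14 of 2926 RBPJ peaks and 1 of 444 L3MBTL3 peaks within 100 kb, and the distal RBPJ peak in addition. Fold enrichment is the authors' ratio at the summit, signal over the background that MACS2 estimates. Distances are signed in the direction of the gene, so that negative values are upstream of the nearest TSS of that gene.

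KLF proteins bind GC-rich and CACCC-type DNA through zinc fingers at their carboxyl end. KLF2 maintains quiescence in endothelium and T cells, KLF4 is a factor of epithelial barriers and pluripotency, KLF6 is a widely expressed growth regulator, and KLF10 was found as a gene induced early by TGF-beta. NR4A1 (Nur77), NR4A2 (Nurr1) and NR4A3 (NOR1) are orphan nuclear receptors whose activity is set mainly by how fast their genes are switched on, and they bind the NBRE sequence as monomers. Many of these genes are early-response genes, which stimuli induce without new protein synthesis through factors such as AP-1, CREB, SRF and MEF2. RBPJ is the DNA-binding protein of the Notch pathway. It recruits corepressors without Notch and coactivators with it, and L3MBTL3 is a methyl-lysine reader known as an RBPJ partner.

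The sequences of 5 peaks are shown because they hold some of the words that the results refer to. A GC box in the KLF4 peak and a CACCC element in the KLF6 peak are left in lower case. All are the plus strand of hg19 read from the reference genome. Capitals mark matches to words searched on both strands: RBPJ high-affinity (CGTGGGAA or TGTGGGAA), RBPJ core (TGGGAA, contained in the high-affinity word), AP-1 (TGACTCA or TGAGTCA), CRE (TGACGTCA), short CRE (TGACG, contained in CRE), TEAD (GGAATG), E-box (CACGTG) and the MEF2 word.
NR4A3 intron peak, chr9:102585825-102585928, with the high-affinity RBPJ word on the minus strand: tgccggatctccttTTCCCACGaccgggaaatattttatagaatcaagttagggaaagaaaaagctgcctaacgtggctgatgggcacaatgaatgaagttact
KLF2 upstream peak, chr19:16412968-16413042, with a pair of AP-1 words: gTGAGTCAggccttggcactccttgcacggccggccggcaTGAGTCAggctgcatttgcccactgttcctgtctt
KLF2 promoter peak, chr19:16435477-16435544, with a MEF2 word: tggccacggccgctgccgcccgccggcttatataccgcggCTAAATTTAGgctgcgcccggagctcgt
KLF4 promoter peak, chr9:110252124-110252249, with an E-box: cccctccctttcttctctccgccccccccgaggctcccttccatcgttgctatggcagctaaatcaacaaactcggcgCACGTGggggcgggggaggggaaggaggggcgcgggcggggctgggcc
KLF6 downstream peak, chr10:3805336-3805479, with an RBPJ core word on the minus strand: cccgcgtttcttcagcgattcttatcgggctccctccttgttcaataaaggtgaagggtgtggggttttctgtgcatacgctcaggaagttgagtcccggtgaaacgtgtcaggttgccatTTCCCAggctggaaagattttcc

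RBPJ peaks lay near 5 of the 7 genes, close together at KLF10 and NR4A3 and spread out at KLF2. KLF2, KLF10 and NR4A3 had 4 RBPJ summits each within 100 kb, KLF4 and KLF6 had 1 each, and NR4A1 and NR4A2 had 0. Of all protein-coding genes 31.0% had an RBPJ summit within 100 kb and 3.38% had 4 or more. Within 10 kb, 4 of the 7 genes (KLF2, KLF4, KLF10 and NR4A3) had an RBPJ summit, against 11.3% of all genes, and the same 4 genes had one within 1 kb, against 8.91%. KLF10 and NR4A3 had all 4 of their summits within 10 kb, a number reached by 36 of the 19748 genes (0.182%). All 7 genes have a CpG-rich TSS, as do 13832 genes of the annotation, of which 34.4% had an RBPJ summit within 100 kb and 12.5% within 1 kb. The members were selected on these peaks, so nothing is read from the difference between their counts and these shares.

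**Figure D1:**
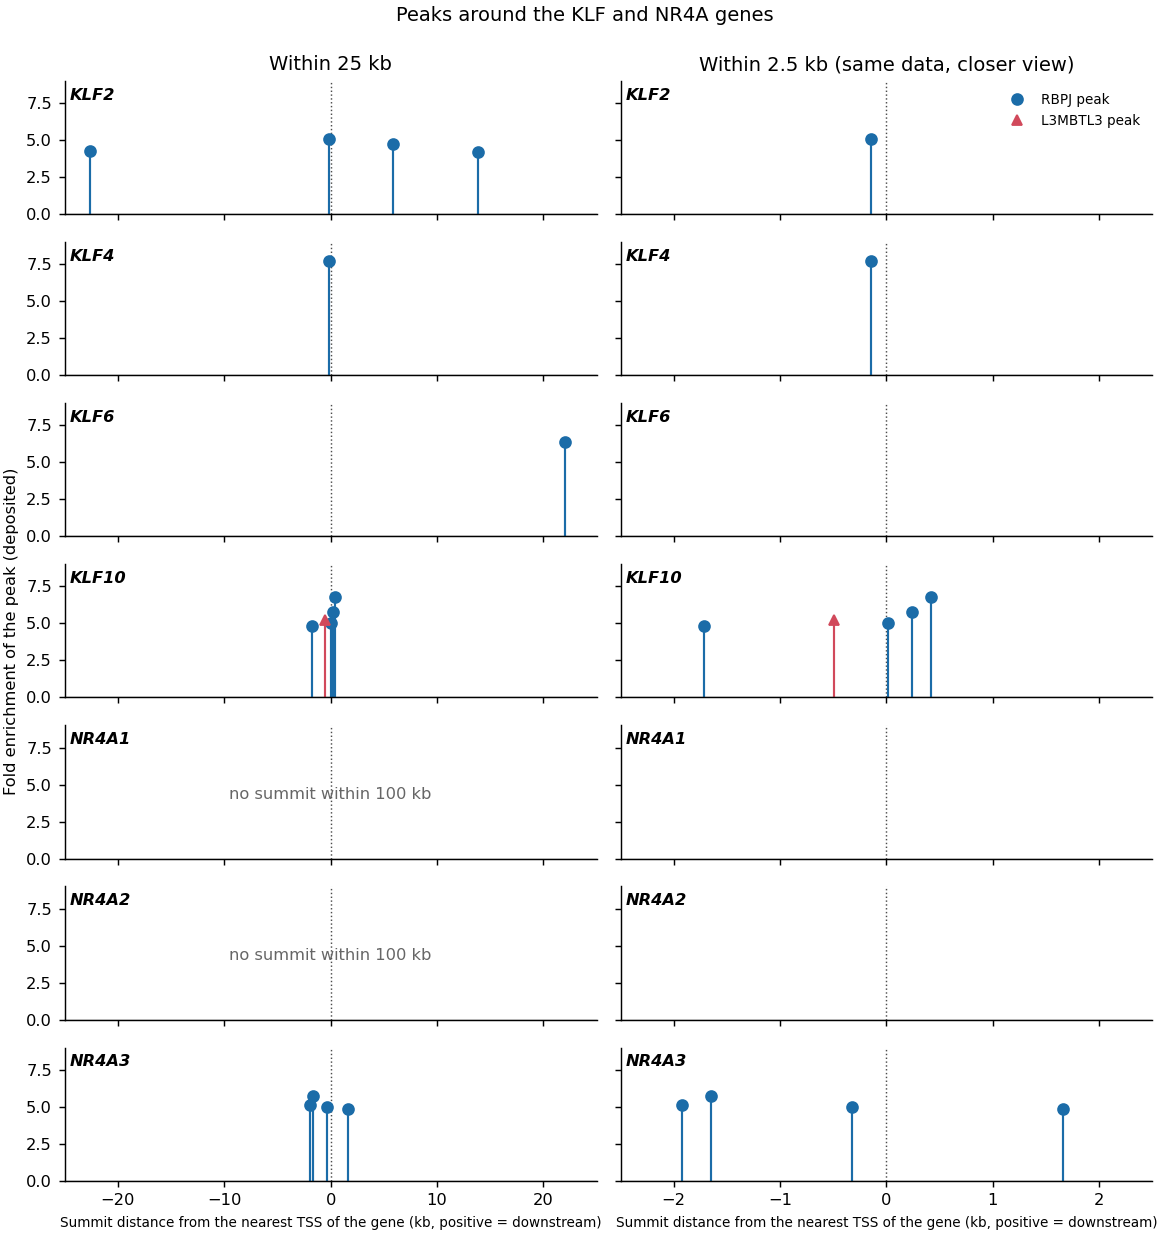
Fold enrichment of each RBPJ (circle) and L3MBTL3 (triangle) peak, as deposited, against the distance of its summit from the nearest TSS of the gene in kb, with a 25 kb view on the left and a 2.5 kb view of the same data on the right. KLF10 and NR4A3 have 4 RBPJ summits each within 2.5 kb, those of KLF2 span 36.5 kb, and NR4A1 and NR4A2 have none.

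Some summits lay close together, so that the count depends on how neighbours are treated. When RBPJ summits within 500 bp of each other were counted as 1 region, the 2926 peaks gave 2560 regions. This rule was chosen after seeing the data, so the shares below are a description only. KLF2 kept 4 regions within 100 kb, NR4A3 had 3 and KLF10 had 2, and 4.83% of all genes had 3 or more. Within 10 kb, NR4A3 had 3 regions, KLF2 and KLF10 had 2 each, and 1.21% of all genes had 2 or more. Another RBPJ summit lay within 1 kb for 5 of the 14 peaks, against 27.1% of the RBPJ list.

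KLF10 carried the only L3MBTL3 peak of the 7 genes. The gene (ENSG00000155090.15, chr8:103661012-103667953, minus strand) has 2 annotated TSS, and each distance is from the nearer one. Its RBPJ summits were at +420, +241, +18 and -1717 bp, with folds of 6.81, 5.80, 5.05 and 4.83. The 3 summits downstream lay 179 and 223 bp apart in the untranslated leader of the shorter annotated transcript, which is an intron of the longer one. The L3MBTL3 summit was at -492 bp from the TSS of the longer transcript with a fold of 5.23 and a -log10 q of 4.05, and 38.5% of L3MBTL3 peaks had a lower fold. It lay between the RBPJ summits, 1225 bp from the nearest and 2262 bp from the farthest of them, and overlapped none. It was 24 bp from a TSS of a long noncoding RNA gene, ENSG00000283959. The RBPJ summit at -1717 bp was 890 bp from another TSS of that gene, and so also nearer to it than to KLF10. The RBPJ fold was highest at the summit farthest inside the gene and lowest at the upstream one among the 4.

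NR4A3 (ENSG00000119508.18, chr9:102584137-102629173, plus strand) had RBPJ summits on both sides of its TSS, in a stretch of 3.62 kb. The summits at -1923, -1653, -327 and +1662 bp had folds of 5.15, 5.74, 5.0 and 4.83 and -log10 q values of 3.06, 3.73, 2.54 and 3.04. The median of the RBPJ list was 5.08, and between 37.1% (+1662 bp) and 73.8% (-1653 bp) of its peaks had a lower fold than these 4. The summit at +1662 bp is in an intron and is the only one of the 14 near the 7 genes with a high-affinity RBPJ word, centred 14 bp from the summit. Its window also had the lowest GC content of the 14, 49.3%, against a median of 68.7% in the other 2912 RBPJ peaks. In RBPJ peaks farther than 1 kb from a TSS, where this summit lies, the median was 59.2% and the lower quartile 51.2%. The summits at -1923 and -1653 bp lay 11 and 281 bp from the TSS of a long noncoding RNA gene, ENSG00000237461, and so nearer to it than to NR4A3. The summits at -1923, -1653 and -327 bp all lie inside another annotated noncoding gene, STX17-DT. The nearest L3MBTL3 summit was 1030 kb from an NR4A3 TSS.

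KLF2 (ENSG00000127528.6, chr19:16435637-16439496, plus strand) had its RBPJ peaks spread over 36.5 kb. The summits at -22643, -141, +5849 and +13854 bp had folds of 4.28, 5.05, 4.76 and 4.22, and the fold was highest at the promoter. All 4 folds were below the median of the RBPJ list. The -log10 q values were 1.81, 3.69, 3.26 and 1.99, so the outer summits were close to the smallest in the list, 1.31. The summit at -22643 bp lies in the long noncoding RNA gene KLF2-DT, whose TSS is 8608 bp away and so nearer than that of KLF2. The next protein-coding gene, EPS15L1, has its nearest TSS 23.3 kb from the summit at +13854 bp and 59.8 kb from the one at -22643 bp. The nearest L3MBTL3 summit was 921 kb away, at NR2F6.

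KLF4 (ENSG00000136826.15, chr9:110247133-110252763, minus strand) had the strongest peak of the 14, with a fold of 7.73 and a -log10 q of 8.52. It ranked 93 of 2926 by fold, and 96.8% of RBPJ peaks had a lower one. Its summit was 148 bp upstream of the nearest TSS, inside an intron of a transcript that starts farther upstream. The nearest other RBPJ summit was 2245546 bp away, and no other protein-coding gene has a TSS within 100 kb of KLF4 (the nearest is RAD23B at 183 kb). The window had a GC content of 71.1% and held a pair of GC boxes (GGGGCGGGG), a pair of short CRE words and an E-box.

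KLF6 (ENSG00000067082.15, chr10:3818188-3827473, minus strand) had no promoter peak. Its single RBPJ summit lay 22008 bp downstream of the TSS and beyond the gene's 3′ end, with a fold of 6.39 and a -log10 q of 5.03, and ranked 344 of 2926 by fold. The summit is inside a long noncoding RNA gene (ENSG00000229672) and 4730 bp from the TSS of another (ENSG00000228353). The next protein-coding gene, PITRM1, starts 590 kb from the summit. The window held an RBPJ core word centred 82 bp from the summit and a pair of CACCC elements (CCACACCC).

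NR4A1 (ENSG00000123358.20, chr12:52416616-52453291, plus strand) and NR4A2 (ENSG00000153234.16, chr2:157180949-157198860, minus strand) had neither an RBPJ nor an L3MBTL3 summit within 100 kb. The nearest RBPJ summit to NR4A1 was 818 kb away, with a fold of 6.32, and had its nearest TSS at KRT78. The peak lists hold called peaks only, so binding under the threshold is not shown to be absent. For the members with peaks, the farthest summits inside the 100 kb limit were 22643 bp (KLF2) and 22008 bp (KLF6) from a TSS. The nearest ones outside it were 133 kb from KLF10 (fold 4.74, nearest gene AZIN1) and 147 kb from KLF2 (fold 4.53, 99 bp from a TSS of EPS15L1).

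The peak nearest to NR4A2 lay 448 kb downstream of its TSS and ranked 3 of 2926 by fold. It had a fold of 15.02, a -log10 q of 32.76 and a width of 302 bp. The peak was taken for its high fold among the RBPJ peaks that overlap no L3MBTL3 peak. Its rank, fold, -log10 q and lack of L3MBTL3 overlap describe that choice and are not findings. The nearest protein-coding TSS on its other side, that of the potassium channel gene KCNJ3, was 1180 kb away. The TSS of a long noncoding RNA gene, LINC01876, was nearer than both at 144434 bp, and no annotated transcript covered the summit. Of the RBPJ peaks 13 (0.444%) were as far or farther from any protein-coding TSS, and 28 (0.957%) were as far or farther from another RBPJ summit, which here was 5.39 Mb away. The nearest L3MBTL3 summit was 11600 kb away. Which gene this peak acts on was not measured, and NR4A2 is named only as the protein-coding gene with the nearest TSS.

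The 14 peaks near the members were of ordinary strength in the RBPJ list. Their median fold was 5.05 (range 4.22 to 7.73), against 5.08 (quartiles 4.53 and 5.78) in the other 2912 RBPJ peaks. Their median -log10 q was 3.27, against 3.51, and 3 of the 14 reached 5 (1 each at KLF4, KLF6 and KLF10), against 21.9% of the list. Their median width was 104 bp, against 94 bp, and the median GC content of their windows was 68.7%, the same as in the other peaks. Summits within 1 kb of a TSS made up 6 of the 14, against 64.1% of the list, since the peaks of KLF2 and NR4A3 lie mostly outside 1 kb.

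**Figure D2:**
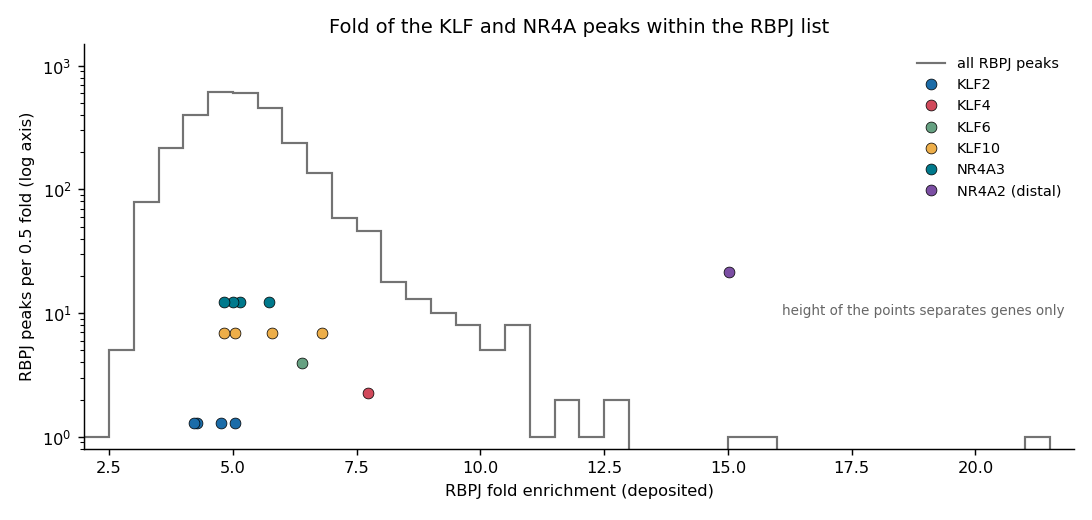
Number of RBPJ peaks per 0.5 of fold enrichment (grey outline, log axis) with the fold of each peak of the KLF and NR4A genes as a point, coloured by gene, whose height only separates the genes. The peaks of KLF2, KLF10 and NR4A3 sit between 4.22 and 6.81, KLF6 is at 6.39, KLF4 is at 7.73, and the distal peak near NR4A2 is at 15.02.

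No RBPJ peak near the 7 genes overlapped an L3MBTL3 peak. This was 0 of 14, against 4.37% of all RBPJ peaks, and 1.57% of all protein-coding genes had a shared peak within 100 kb. An L3MBTL3 summit lay within 100 kb of 1 of the 7 genes, KLF10, against 4.53% of all genes. The count stayed at 0 when peaks were called shared by summits within 1 kb of each other, and 2 RBPJ peaks of KLF10 came within 2 kb of the L3MBTL3 summit.

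An RBPJ word of either kind was at 4 of the 14 peaks. The high-affinity word was within 100 bp of 1 of the 14 summits, against 8.51% of all RBPJ peaks, 13.7% of those farther than 1 kb from a TSS and 1.56% of windows centred 2 kb from RBPJ summits. The core word was at 4 of the 14 (KLF6, NR4A3 and 2 at KLF10), against 29.5% and 16.8%. At KLF2 and KLF4 neither was found within 100 bp of any summit. These shares are near those of the list. A match is a description of the letters and not a measured site.

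AP-1 words were at 3 of the 14 summits, 2 of them at KLF2 and 1 at KLF10, against 11.2% of all RBPJ peaks, 24.5% of those farther than 1 kb from a TSS and 3.40% of the flanking windows. The windows of both these KLF2 summits, at -22643 and +5849 bp, held 2 AP-1 words, as did those of 47 of the 2926 RBPJ peaks (1.61%). Only 2 of the 1876 RBPJ peaks within 1 kb of a TSS had such a window (0.107%). The share is thus higher among farther peaks, where both KLF2 peaks lie. In the upstream KLF2 peak the words were centred 22 bp before and 17 bp after the summit. At the downstream KLF2 peak they were centred 88 and 58 bp before the summit, outside the called peak. The full CRE word was found at 0 of the 14 summits, against 1.57% of the list. The short CRE word was at 4 (KLF4, KLF10 and 2 at NR4A3), against 21.3% of the list. At NR4A3 the window around the summit at -1653 bp held 2 copies, each centred 11 bp from the summit on either side. The upstream copy was not wholly inside the called peak.

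The NBRE (AAAGGTCA) and the SRF CArG box were found at 0 of the 14 summits, against 0.410% and 0.615% of the list. The GC box was at 5 (KLF4, NR4A3 and 3 at KLF10), against 21.8%, and the TEAD word at 3 (NR4A3 and 2 at KLF10), against 13.7%. Both shares depend on distance from a TSS. The GC box was at 29.0% of RBPJ peaks within 1 kb and 8.86% of those farther, and the TEAD word at 7.46% and 24.9%. The E-box was at 2 (KLF2 at +13854 bp and KLF4), against 6.87%, and the CACCC element at 1 (KLF6), against 3.35%. A MEF2 word was searched after the KLF2 promoter sequence had been read, so its presence there is no evidence. It was centred 26 bp from the KLF2 promoter summit and 44 bp from the NR4A3 summit at -1923 bp, where it lay just outside the peak. It was within 100 bp of 9 of the 2926 RBPJ summits (0.308%), against 0.359% of flanking windows. MEF2 factors are known activators of KLF2 in endothelium and of NR4A1 in T cells.

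**Figure D3:**
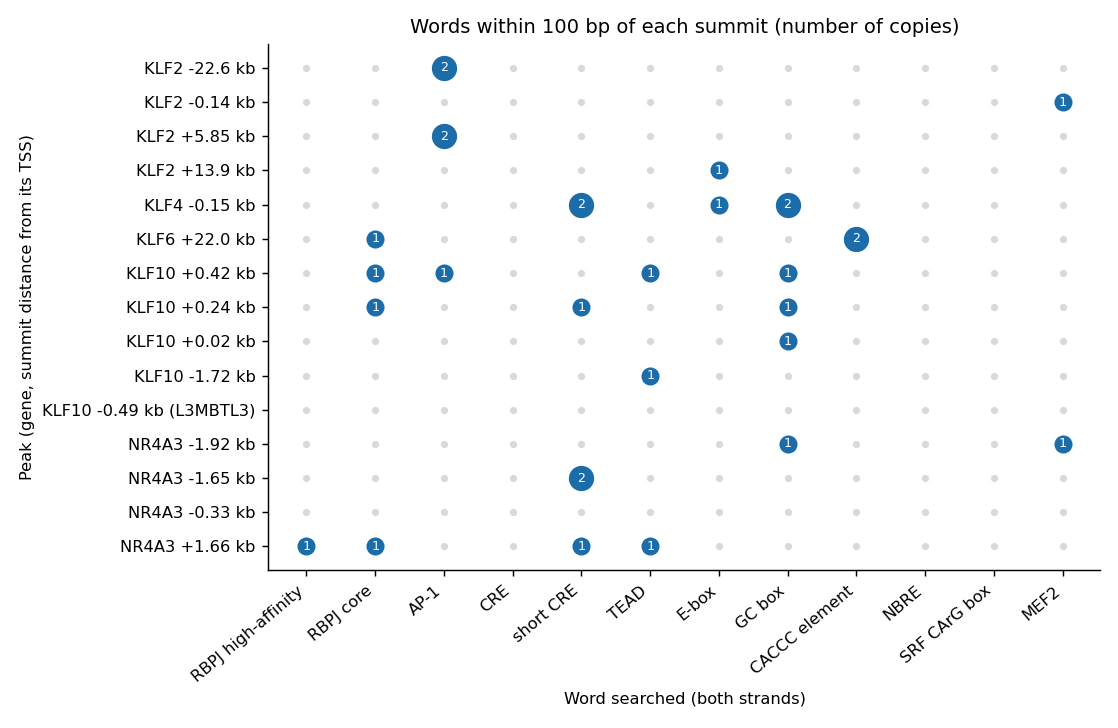
Number of copies of each word (columns) within 100 bp of each summit within 100 kb of the genes (rows, gene and distance from its TSS in kb), on either strand, where a small grey dot is 0 copies. The high-affinity RBPJ word is at 1 peak, the NR4A3 summit at +1.66 kb. Of the KLF2 summits, 2 have 2 AP-1 words each within 100 bp, and those at +5.85 kb are outside the called peak.

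Relatives of the 7 genes were counted in the same way. Their lists were chosen with earlier results of these data known, so nothing is read from differences between the shares. Of 22 other KLF and SP genes 7 had an RBPJ summit within 100 kb and 6 within 10 kb, and of 45 other nuclear receptor genes 15 and 8 did, against 31.0% and 11.3% of all genes. The highest RBPJ folds within 10 kb were 5.83 at KLF9, 5.80 at SP4 and 5.34 at KLF12 among the KLF and SP genes. Among the nuclear receptors they were 7.42 at NR1D2, which encodes a circadian repressor and whose peak lies nearer to NKIRAS1, 5.59 at the retinoic acid receptor gene RARA and 5.58 at the glucocorticoid receptor gene NR3C1. An L3MBTL3 summit lay within 10 kb of 2 of the 22 KLF and SP genes (KLF3 and KLF13) and 2 of the 45 nuclear receptor genes (NR2F6 and NR3C2), against 1.58% of all genes. None of these peaks was shared, and 0.603% of all genes had a shared peak within 10 kb. These 4 are named because they are few, after their values were seen.

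Of 39 other early-response genes listed, 30 had an RBPJ summit within 100 kb, 20 within 10 kb and 19 within 1 kb, against 31.0%, 11.3% and 8.91% of all genes. The highest folds within 10 kb were 8.19 at IER3, whose peak lies nearer to FLOT1, 6.57 at ZFP36, which encodes an mRNA decay factor, and 6.36 at the AP-1 subunit gene FOSL2. Within 10 kb, 4 of the 39 had 4 or more RBPJ summits, against 0.182% of all genes. These were FOSL1, JUNB, JUND and IER3, named after their values were seen. An L3MBTL3 summit lay within 10 kb of 1 of the 39, IER3, against 1.58% of all genes. That peak was shared (folds 8.19 for RBPJ and 4.54 for L3MBTL3), and 0.603% of all genes had a shared peak within this distance. This list too was chosen with earlier results of these data known, so its shares are a description only. The share of genes was not tested between the lists, and gene activity in these cells was not measured here.

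**Figure D4:**
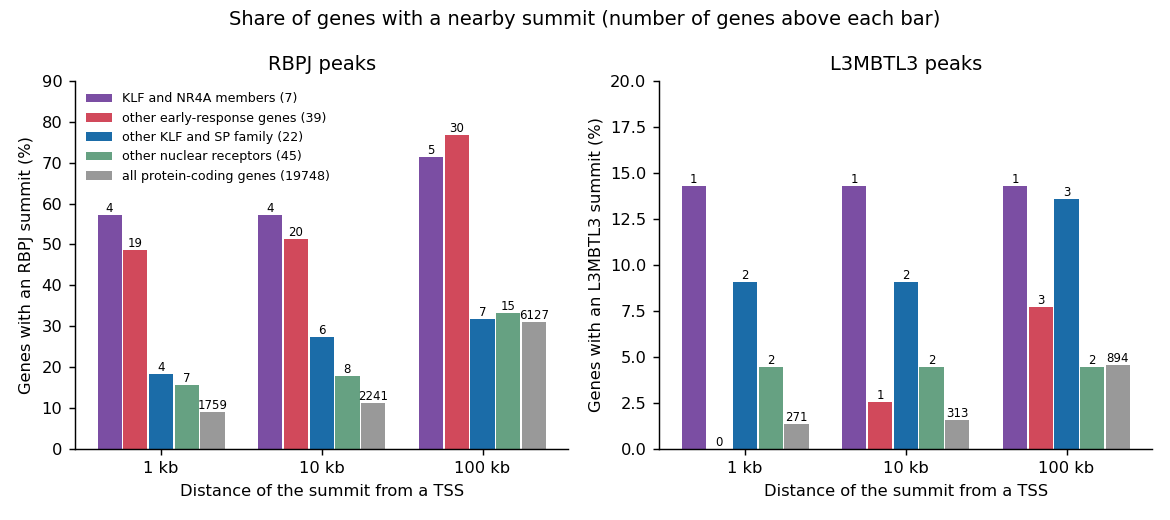
Percent of genes with an RBPJ summit (left) or an L3MBTL3 summit (right) within 1, 10 and 100 kb of a TSS, for the 7 members, 3 lists of related genes and all 19748 protein-coding genes, with the number of genes above each bar. With RBPJ, 4 of the 7 members and 19 of 39 early-response genes have a summit within 1 kb, against 1759 of all genes. The members and the lists were chosen with earlier results of these data known.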

How the data were processed

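ChIP-seq of RBPJ and L3MBTL3 was analysed from 1 deposited peak list per antibody. Per the labels' protocols, Trimmomatic removed adaptors from the 50-cycle single-end reads and BWA 0.7.15 placed them on hg19. The submitters' processing notes also name MACS2, with no version, cutoff or role for the input stated. The deposited columns are the fold enrichment (a ratio at the summit), the -log10 p and q, and a score, 10 times the -log10 q truncated. The largest q was 0.0487 (RBPJ) and 0.0498 (L3MBTL3).

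Coordinates are 1-based in hg19. Sequence is GRCh37, and genes are GENCODE 44 lifted to that build, with 78530 TSS of protein-coding transcripts. A TSS was CpG-rich where observed over expected CpG in 1 kb exceeded 0.6. Peaks overlapping by 1 bp were shared. Words were sought within 100 bp of summits. No test was made. The members and gene lists were chosen with earlier results of these data known. The rule for genes named from lists was a shared peak or the 3 highest RBPJ folds within 10 kb, and those named outside it (for an L3MBTL3 summit or 4 RBPJ summits) were chosen after their values were seen. The functions were tested on simulated data (pysam 0.24.0, pandas 2.3.3). Lower distances, stricter q, other overlaps and windows were tried. The sequence content of the distal peak is not reported here.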

Additional observations from a re-analysis of the deposited data

How the results depend on the processing

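With a -log10 q of at least 5, RBPJ peaks within 100 kb fell to 3, at 3 member genes, each nearest to its member, with a median fold of 6.81, and 0 of them held the high-affinity RBPJ word, 2 the core and 1 the AP-1 word. L3MBTL3 peaks and genes fell to 0 under that q and with folds of at least the list median, where 6 RBPJ peaks were left. Within 1 kb there were 6 RBPJ peaks. Counting every annotated gene, 9 of the 14 RBPJ peaks were nearest to their member. A window of 200 bp gave 5 peaks with an AP-1 word. Summits within 2 kb, a rule chosen after seeing the data, made 2 RBPJ peaks shared. All other alternatives stayed within 1.5 times the value reported. No paired analysis was possible because each antibody has 1 library. Read counts behind single peaks are unknown, so the error of a fold, and binding below the threshold, cannot be judged.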
